A study of Mus musculus with 22 samples.

Results

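The MHC class II genes described here are H2-Aa, H2-Ab1, H2-Eb1, H2-DMa, H2-DMb1, Cd74 and Ciita, 7 of the 34745 genes in a table of whole mouse ovary RNA. They were taken by symbol and were chosen by their FPKM over all 22 libraries, which had been read as high at postnatal day 60, lower at 1 year and high again at 2 years. Their levels are therefore given as a description, with no test, in every comparison of ages. All 7 were in the table and all 7 passed the filter for testing, which asked for 1 FPKM or more (a measure of RNA abundance in which fragments are divided by the length of the transcript and by library size) in 2 or more libraries. H2-Aa and Ciita passed it only through the libraries after P7, and the other 5 also reached it before P14.

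The ovaries came from unmanipulated CD1 mice, an outbred stock in which individual animals can carry different alleles, and were frozen whole after dissection. Each of 11 ages had 2 libraries. Ages before birth are written E13, E15 and E17 for the embryonic day, ages after birth P0, P3, P7, P14, P21 and P60 for the postnatal day, with P0 as the day of birth, and the oldest animals were 1 year (Y1) and 2 years (Y2) old. The labels give no cycle stage and no link between libraries and animals, so the spread within an age may be technical. Each library held an estimated 11480000 to 18140000 reads, at which 1 read from a transcript of 1 kb is worth 0.0551 to 0.0871 FPKM. Within 10 ages the libraries correlated across genes with Pearson r of at least 0.9795, and within Y2 with r of 0.94. Markers of granulosa cells and oocytes were present: the granulosa gene Foxl2 averaged between 10.5 FPKM at E13 and 105.6 FPKM at P7, and the oocyte gene Gdf9 averaged 198 FPKM at P14 and 8.91 FPKM at Y2.

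MHC class II molecules carry peptides from endocytosed proteins to the cell surface, where CD4+ T cells read them. H2-Aa and H2-Ab1 encode the alpha and beta chains of the I-A molecule, and H2-Eb1 encodes the beta chain of I-E. Cd74 encodes the invariant chain, which blocks the peptide groove until endosomal proteases trim it, and H2-DMa and H2-DMb1 encode the DM heterodimer, which exchanges the remaining fragment for other peptides. Ciita encodes the transactivator that these genes require, which is recruited to a shared promoter module by the RFX, CREB and NF-Y factors. Dendritic cells, B cells and macrophages express class II constitutively or on activation, and interferon gamma induces it in many other cells through Ciita.

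The 5 H2 genes lie in the class II region of chromosome 17. In the GENCODE annotation of GRCm38, the mm10 build, H2-Aa (ENSMUSG00000036594) is at chr17:34282744-34287823 on the minus strand. On the plus strand are H2-Ab1 (ENSMUSG00000073421) at chr17:34257689-34269419, H2-Eb1 (ENSMUSG00000060586) at chr17:34305867-34316674, H2-DMa (ENSMUSG00000037649) at chr17:34119541-34139101 and H2-DMb1 (ENSMUSG00000079547) at chr17:34153072-34160230. Ciita (ENSMUSG00000022504) lies at chr16:10480059-10528418 on the plus strand. Of the 31-base words in the transcripts of H2-DMb1, 31.4% also occur in other genes, chiefly its neighbour H2-DMb2, so the division of reads between these genes is uncertain. H2-Eb1, H2-DMa and Ciita overlap genes on the opposite strand, and whether strand was used in quantification is not given in the sources used here. H2-DMa also overlaps CR974462.3, and Cd74 overlaps Mir5107, on the same strand, where strand cannot separate reads.

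The promoters are shown because the genes had similar profiles and share a known control module. RefSeq promoter windows of GRCm38.p6, from 250 bases before to 50 bases after the annotated start, were held for 4 members in 5 windows. They were searched on both strands for a core of the X box, CNNGNAAC, and a core of the Y box, ATTGG, with 15 to 30 bases between them, cores that were chosen with these sequences in view. Shown are bases 130 to 21 before the start, 5′ to 3′ on the gene's own strand, with both cores in capitals (chr17:34287844-34287953 for H2-Aa, chr17:34305737-34305846 for H2-Eb1, chr17:34153061-34153170 for H2-DMb1).
H2-Aa: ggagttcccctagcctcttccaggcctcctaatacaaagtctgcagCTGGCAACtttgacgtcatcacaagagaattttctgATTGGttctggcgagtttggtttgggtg
H2-Eb1: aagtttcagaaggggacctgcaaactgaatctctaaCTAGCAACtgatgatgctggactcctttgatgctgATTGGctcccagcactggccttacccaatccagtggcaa
H2-DMb1: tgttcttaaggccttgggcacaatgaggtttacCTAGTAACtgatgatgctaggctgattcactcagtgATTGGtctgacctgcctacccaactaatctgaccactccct
The X core began 84 bases before the start in H2-Aa, 94 in H2-Eb1 and 97 in H2-DMb1, and the gap to the Y core was 28, 27 and 28 bases in that order. Of 32851 RefSeq windows, 39.1% held the X core on either strand, 37.4% the Y core and 0.636% the ordered pair. Neither window of H2-DMa held the pair in these letters.

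The neighbouring gene H2-DMb2 is shown for comparison with H2-DMb1, with its Y core in capitals (chr17:34145119-34145228, plus strand).
H2-DMb2: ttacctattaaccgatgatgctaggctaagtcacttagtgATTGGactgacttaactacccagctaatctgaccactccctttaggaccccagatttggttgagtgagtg
The windows of H2-Oa, H2-Ob and H2-Eb2, other class II genes, held the pair and that of H2-DMb2 did not. A match is a description of letters and not a measured binding site.

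Class II RNA was low in the fetal and neonatal ovary and stepped up between P7 and P14. Over the 12 libraries of E13 to P7, the highest value of any member was 3.54 FPKM, that of Cd74 at P7. In that span H2-Aa lay between 0.0588 and 2.39 FPKM with a median of 0.428, H2-Ab1 between 0.227 and 1.98 with a median of 0.756, and H2-Eb1 between 0.147 and 2.42 with a median of 0.661. Ciita stayed between 0.0141 and 0.156 FPKM, values that rest on few reads. From P14 on, Ciita lay between 0.256 and 2.60 FPKM and Cd74 between 9.60 and 206 FPKM, above their earlier ranges. H2-Eb1, H2-DMa and H2-DMb1 each had at least 1 later library within their earlier range.

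The age course was not a steady rise to P60. All 7 genes were high at P14, lower at P21, high at P60, lower at Y1 and highest on average at Y2. The sum of the 3 chains of I-A and I-E was 2.19 and 2.38 FPKM in the P7 libraries, 43.0 and 33.1 FPKM at P14, 11.6 and 13.04 FPKM at P21, 68.9 and 113.8 FPKM at P60, 27.0 and 30.1 FPKM at Y1 and 362 and 243 FPKM at Y2. No 2 neighbouring ages in this series overlapped. In bulk RNA, fewer cells of a type and less RNA per cell cannot be told apart.

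**Figure D1:**
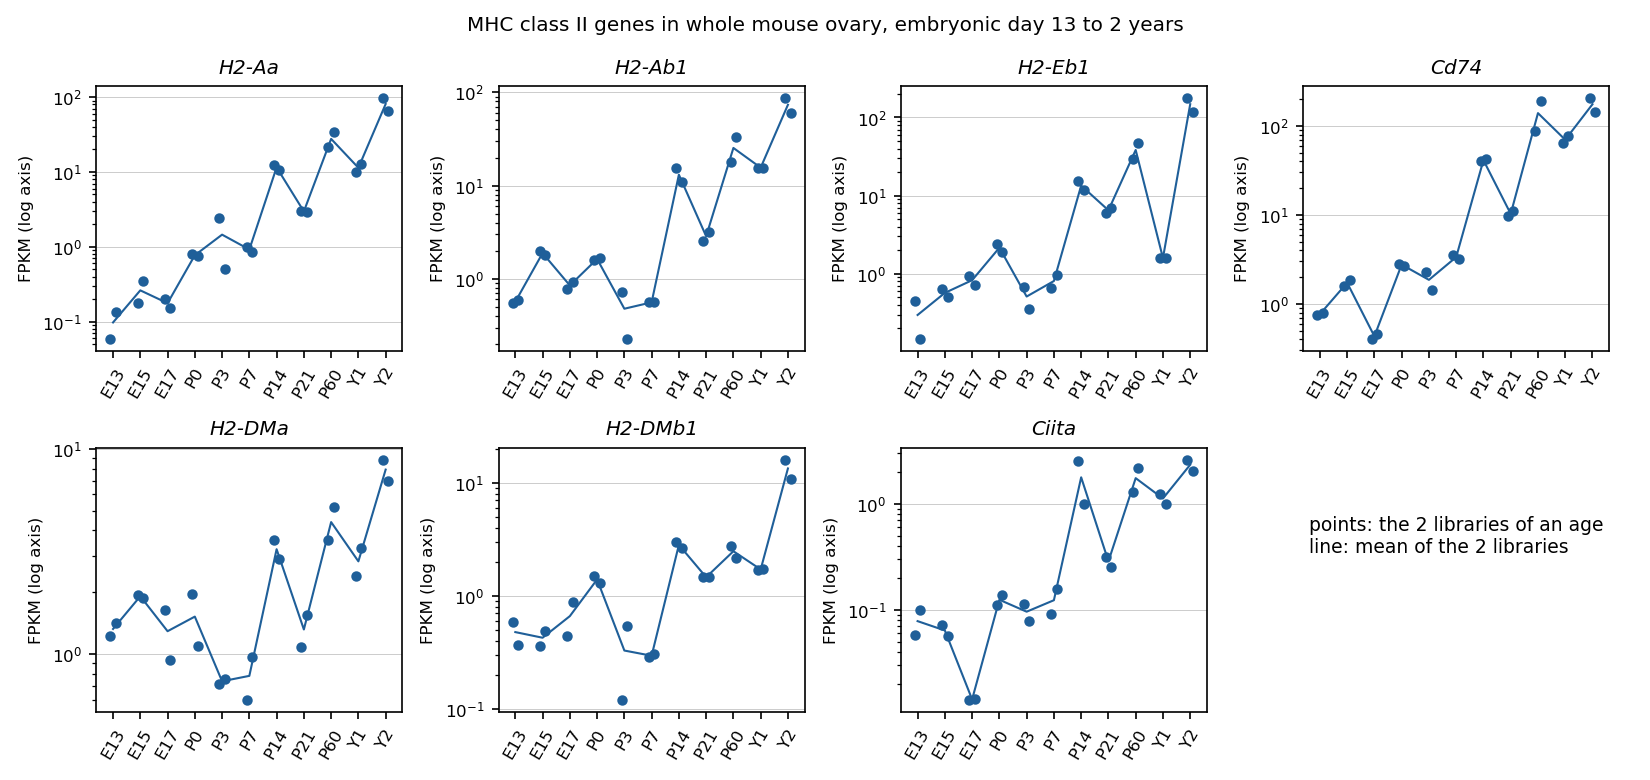
FPKM of each MHC class II gene (log axis) at 11 ages, with 1 point for each of the 2 libraries and a line through their mean. All 7 genes step up at P14, are lower at P21, and reach their highest mean at Y2; H2-Eb1 is at 1.57 and 1.60 FPKM at Y1.

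Before birth and in the first week the members were low, and between E17 and P7 they differed in both directions. The counts of members below are near the shares of all tested genes and set the members apart in neither direction. In P7 against E17, Cd74 had 3.54 and 3.17 FPKM at P7, against 0.406 and 0.460 FPKM at E17, and H2-Aa had 0.978 and 0.859 FPKM at P7, against 0.202 and 0.150 FPKM at E17. H2-Ab1 went the other way, with 0.557 and 0.561 FPKM at P7, against 0.785 and 0.913 FPKM at E17. In all, 3 members had both P7 libraries above both E17 libraries (Cd74, Ciita and H2-Aa; 31.1% of the 16117 tested genes did), and 2 had both below (H2-Ab1 and H2-DMb1; 37.9% of tested genes). The highest early levels of H2-Ab1 were at E15, with 1.98 and 1.79 FPKM, when H2-Aa had 0.176 and 0.346 FPKM. At birth H2-Eb1 had 2.42 and 1.88 FPKM, its highest early mean.

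At P14 every member was well above P7. This comparison and P21 against P14 were added after the values of the members at P14 had been seen. H2-Aa had 12.5 and 10.5 FPKM at P14, against 0.978 and 0.859 FPKM at P7. H2-Ab1 had 15.3 and 10.9 FPKM at P14, against 0.557 and 0.561 FPKM at P7. H2-Eb1 had 15.2 and 11.7 FPKM at P14, against 0.655 and 0.956 FPKM at P7. The differences of the 3 chains on the log2(FPKM + 1) scale were 2.70, 3.16 and 2.99 in that order. Both libraries of P14 were above both libraries of P7 for each of them.

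The invariant chain gene Cd74 (ENSMUSG00000024610, chr18:60803848-60812652, plus strand) and the peptide editors stood higher as well. Cd74 had 40.3 and 42.2 FPKM at P14, against 3.54 and 3.17 FPKM at P7, a log2 difference of 3.28. H2-DMa had 3.58 and 2.90 FPKM at P14, against 0.595 and 0.970 FPKM at P7. H2-DMb1 had 3.01 and 2.66 FPKM at P14, against 0.288 and 0.303 FPKM at P7. The DM genes thus differed by 1.25 and 1.56 on the log2 scale, less than the chains in size, and that scale understates the change of genes near 1 FPKM. Ciita had 2.54 and 0.996 FPKM at P14, against 0.0908 and 0.156 FPKM at P7. Its P14 libraries lay further apart in ratio than those of any other member, and its log2 difference of 1.24 was 0.83 without P14 replicate 1. All 7 members had P14 libraries above P7 libraries (25.7% of tested genes did) and all 7 by 1 or more log2 units (1.32% of tested genes). Their median difference was 2.70, against 0.01 over all tested genes.

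At P21 the same 7 genes were lower than at P14. Cd74 had 9.60 and 11.0 FPKM at P21, against 40.3 and 42.2 FPKM at P14, a log2 difference of -1.91. H2-Ab1 had 2.53 and 3.19 FPKM at P21, against 15.3 and 10.9 FPKM at P14, and H2-Aa had 3.00 and 2.93 FPKM at P21, against 12.5 and 10.5 FPKM at P14. Ciita had 0.317 and 0.256 FPKM at P21, against 2.54 and 0.996 FPKM at P14. The difference was smaller for H2-Eb1 than for the I-A chains, with 6.04 and 6.92 FPKM at P21, against 15.2 and 11.7 FPKM at P14. No member's P21 libraries overlapped those of P14. All 7 were lower (41.4% of tested genes were), of which 4 differed by 1 or more on the log2 scale (5.37% of tested genes), and their median difference was -1.05, against -0.06 over all tested genes. P21 still lay above P7 for all 7 (28.5% of tested genes), with a median log2 difference of 1.05, against -0.04 over all tested genes.

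P60, the young adult age, stood above P21. Cd74 had 88.8 and 190 FPKM at P60, against 9.60 and 11.0 FPKM at P21, the largest log2 difference of the members at 3.54. H2-Aa had 21.5 and 33.9 FPKM at P60, against 3.00 and 2.93 FPKM at P21, and H2-Ab1 had 17.9 and 32.8 FPKM at P60, against 2.53 and 3.19 FPKM at P21. H2-Eb1 had 29.6 and 47.1 FPKM at P60, against 6.04 and 6.92 FPKM at P21. For all but H2-DMb1, the second P60 library was the higher one, and its Cd74 level was more than the first library's by the widest margin of the members. H2-DMb1 differed least, with 2.79 and 2.19 FPKM at P60, against 1.47 and 1.46 FPKM at P21. H2-DMa had 3.60 and 5.19 FPKM at P60, against 1.08 and 1.55 FPKM at P21, and Ciita had 1.29 and 2.19 FPKM at P60, against 0.317 and 0.256 FPKM at P21. All 7 were higher without overlap (29.2% of tested genes), 6 of them by 1 or more log2 units (2.75% of tested genes), with a median of 2.36, against -0.02 over all tested genes.

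At Y1 H2-Eb1 stood apart from the other chains. H2-Eb1 had 1.57 and 1.60 FPKM at Y1, against 29.6 and 47.1 FPKM at P60, a log2 difference of -3.89. H2-Ab1, the corresponding beta chain of I-A, had 15.5 and 15.6 FPKM at Y1, against 17.9 and 32.8 FPKM at P60, a log2 difference of -0.61. H2-Aa had 9.85 and 12.9 FPKM at Y1, against 21.5 and 33.9 FPKM at P60, a log2 difference of -1.19. Cd74 had 63.6 and 76.3 FPKM at Y1, against 88.8 and 190 FPKM at P60. The DM genes were also lower, H2-DMa with 2.39 and 3.27 FPKM at Y1, against 3.60 and 5.19 FPKM at P60, and H2-DMb1 with 1.70 and 1.74 FPKM at Y1, against 2.79 and 2.19 FPKM at P60. Ciita had 1.24 and 0.997 FPKM at Y1, against 1.29 and 2.19 FPKM at P60, and its nearest libraries of the 2 ages lay closest in ratio. By mean FPKM, H2-DMb1 changed least, with a ratio of Y1 over P60 of 0.690, against 0.643 for Ciita. All 7 were lower without overlap (44.9% of tested genes), but only H2-Eb1 and H2-Aa by 1 or more log2 units (1.87% of tested genes). The median difference of -0.61, against -0.09 over all tested genes, was -1.03 without P60 replicate 1 and -0.34 without P60 replicate 2.

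Y2 held the highest mean of every member. H2-Eb1 had 177 and 119 FPKM at Y2, against 1.57 and 1.60 FPKM at Y1, a log2 difference of 5.82. H2-Aa had 97.5 and 64.6 FPKM at Y2, against 9.85 and 12.9 FPKM at Y1, and H2-Ab1 had 86.9 and 60.2 FPKM at Y2, against 15.5 and 15.6 FPKM at Y1. H2-DMb1 had 16.1 and 10.8 FPKM at Y2, against 1.70 and 1.74 FPKM at Y1, while its partner H2-DMa had 8.86 and 6.97 FPKM at Y2, against 2.39 and 3.27 FPKM at Y1. Cd74 had 206 and 145 FPKM at Y2, against 63.6 and 76.3 FPKM at Y1. Ciita had 2.60 and 2.05 FPKM at Y2, against 1.24 and 0.997 FPKM at Y1, a log2 difference of 0.65. In all 7 genes the first Y2 library was the higher one. All 7 were above Y1 without overlap (26.5% of tested genes), 6 of them by 1 or more log2 units (4.05% of tested genes), with a median of 2.15, against 0.02 over all tested genes. The Y2 libraries were less alike than those of other ages, and leaving out the first or the second gave a log2 difference of 5.53 or 6.11 for H2-Eb1, 2.42 or 3.00 for H2-Aa, 1.05 or 1.55 for Cd74 and 0.53 or 0.77 for Ciita. The first Y2 library also had less ovary marker RNA, with a sum of 8 granulosa, steroidogenic and oocyte genes of 758 FPKM, against 3977 FPKM in the second. Most of that gap was Star, a steroidogenic gene, with 123 and 3275 FPKM at Y2, against 2563 and 1914 FPKM at Y1. The oocyte genes went the other way between the Y2 libraries, Zp3 with 13.4 and 2.40 FPKM and Gdf9 with 14.02 and 3.79 FPKM. The part of tissue makeup in the class II levels at Y2 was not tested.

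Set against P60, the Y2 level was higher for 5 members and overlapping for Cd74 and Ciita (22.5% of tested genes were higher without overlap). H2-DMb1 showed the largest log2 difference of Y2 over P60, 2.03, followed by H2-Eb1 with 1.93, H2-Ab1 with 1.54 and H2-Aa with 1.52. These 4 exceeded 1 on the log2 scale (3.67% of tested genes did). Cd74 had 206 and 145 FPKM at Y2, against 88.8 and 190 FPKM at P60, and its log2 difference of 0.41 became -0.14 without P60 replicate 1. The median difference was 1.52, against -0.04 over all tested genes.

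**Figure D2:**
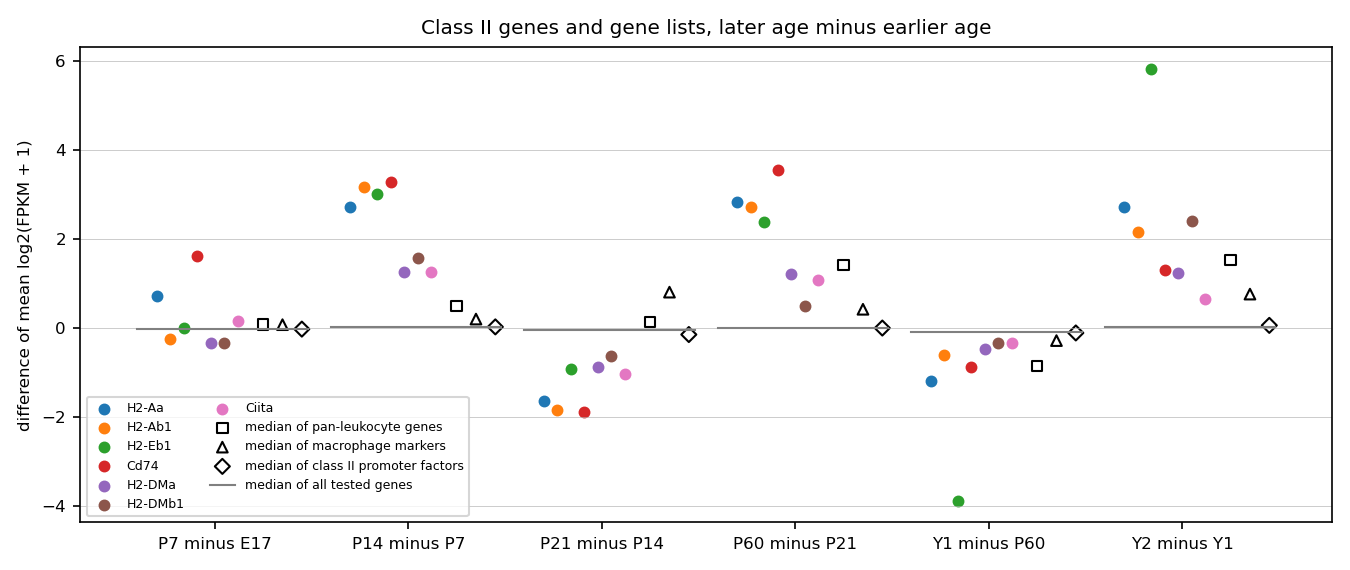
Difference of mean log2(FPKM + 1), later age minus earlier age, for the 7 class II genes (filled points), the medians of 3 gene lists (open symbols) and the median of all tested genes (grey lines) in 6 comparisons. All 7 class II genes lie above 0 in P14 minus P7 and below 0 in P21 minus P14, where the median of the macrophage markers is 0.80.

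Ratios within a library show how the members kept or left proportion, and they do not depend on the scaling of the library. H2-Aa per H2-Ab1, the alpha and beta chains of I-A, stayed between 0.634 and 1.20 in the 10 libraries from P14 on. H2-Eb1 per H2-Ab1 was 0.990 and 1.08 at P14, 2.39 and 2.17 at P21, 1.66 and 1.44 at P60, 0.101 and 0.103 at Y1 and 2.04 and 1.97 at Y2. The Y1 libraries stood apart from every other age for this ratio and nearly matched each other. Both libraries of an age could share animals or alleles, and class II genes are highly polymorphic. The part of allelic differences in the Y1 ratio was not tested.

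H2-DMb1 per H2-DMa was 1.82 and 1.55 at Y2, against 0.710 and 0.532 at Y1 and 0.775 and 0.422 at P60. H2-DMb1 was thus more abundant per length than H2-DMa at Y2, and less abundant at Y1 and P60. The second DM beta chain gene, H2-DMb2, is not in this ratio. H2-DMb2 had 1.12 and 0.613 FPKM at Y2, against 1.07 and 1.27 FPKM at Y1 and 1.31 and 2.14 FPKM at P60. The ratio therefore does not compare all DM beta chain RNA with the alpha chain. Cd74 per sum of the 3 chains was 0.569 and 0.595 at Y2, against 2.36 and 2.54 at Y1 and 1.29 and 1.67 at P60. Part of the Y1 value follows from the low H2-Eb1 in the sum. Against H2-Ab1 alone, Cd74 was 2.37 and 2.41 at Y2, against 4.09 and 4.90 at Y1 and 4.97 and 5.79 at P60, so Y2 stayed below both. The sum of the 3 chains per Ciita was 139 and 119 at Y2, against 21.7 and 30.2 at Y1 and 53.4 and 52.1 at P60.

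**Figure D3:**
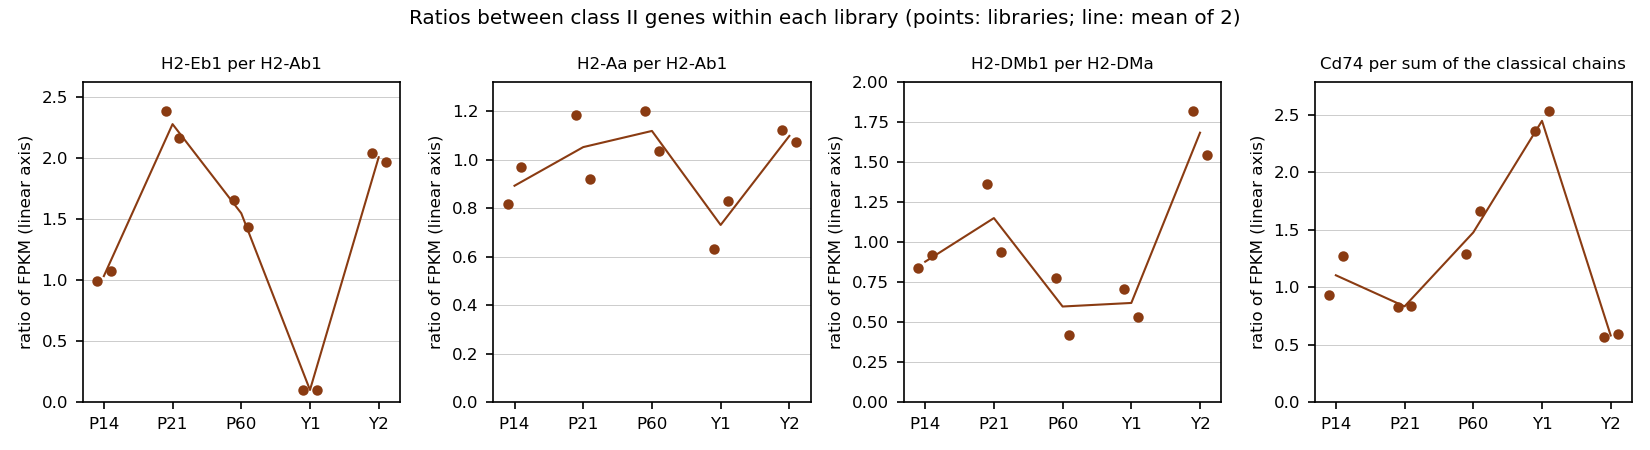
Ratios of FPKM between class II genes within each library (linear axes starting at 0) at P14, P21, P60, Y1 and Y2, with points for libraries and lines for the mean of 2. H2-Eb1 per H2-Ab1 is 0.101 and 0.103 at Y1 and between 0.990 and 2.39 at the other ages, while H2-Aa per H2-Ab1 stays between 0.634 and 1.20.

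Over all 22 libraries the 7 members correlated with each other on the log2(FPKM + 1) scale with Pearson r between 0.817 and 0.974 over 21 pairs, with a median of 0.891. These libraries share ages and depth, and the genes were chosen for a common profile.

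Of the 5 other class II genes in the table, only H2-DMb2 and H2-Ea-ps passed the filter for testing. H2-DMb2 encodes a second DM beta chain, and 36.4% of its 31-base words occur in other genes, chiefly H2-DMb1. It had 0.0708 and 0.106 FPKM at P21, against 0.852 and 2.35 FPKM at P14, and fell (log2 difference -1.19, limma, adjusted p = 0.0020). It had 1.31 and 2.14 FPKM at P60, against 0.0708 and 0.106 FPKM at P21, and rose (1.31, limma, adjusted p = 0.0022). It also passed the test in P14 against P7 (1.00, limma, adjusted p = 0.034), but not without P7 replicate 1, P7 replicate 2 or P14 replicate 2, where the adjusted p was at most 0.297. H2-DMb2 had 1.12 and 0.613 FPKM at Y2, against 1.07 and 1.27 FPKM at Y1, where H2-DMb1 had 16.1 and 10.8 FPKM at Y2, against 1.70 and 1.74 FPKM at Y1.

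H2-Ea-ps is annotated as a polymorphic pseudogene, a gene intact in some strains and disrupted in others, and encodes the alpha chain partner of H2-Eb1 where it is intact. It was listed at 0 in both libraries of P21 and of Y2 and in all libraries of E13 to P0. It had 0.909 and 0.279 FPKM at P14, 1.14 and 1.36 FPKM at P60 and 1.57 and 1.72 FPKM at Y1. It rose in P60 against P21 (limma, adjusted p = 7.2e-04) and fell in Y2 against Y1 (limma, adjusted p = 8.3e-05) and in Y2 against P60 (limma, adjusted p = 3.2e-04), while the log2 difference of H2-Eb1 was 5.82 in Y2 against Y1. It also fell in P21 against P14 (limma, adjusted p = 0.0203), a call that ended without P21 replicate 1, P21 replicate 2 or P14 replicate 1, where the adjusted p was at most 0.247. The Y1 ovaries thus had the highest H2-Ea-ps and the lowest H2-Eb1 of the adult ages, and the Y2 ovaries the reverse. The part of alleles that differ between animals in these values was not tested.

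H2-Oa and H2-Ob encode DO, which inhibits DM and is found mainly in B cells. H2-Oa was highest in the first E13 library with 1.00 FPKM and had 0.724 and 0.218 FPKM at Y2, against 0.192 and 0.270 FPKM at Y1. H2-Ob had 0.454 and 0.360 FPKM at Y2, against 0.417 and 0.300 FPKM at Y1, and these ranges overlapped. H2-Eb2 was at most 0.269 FPKM in any library. None of these 3 was tested.

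**Figure D4:**
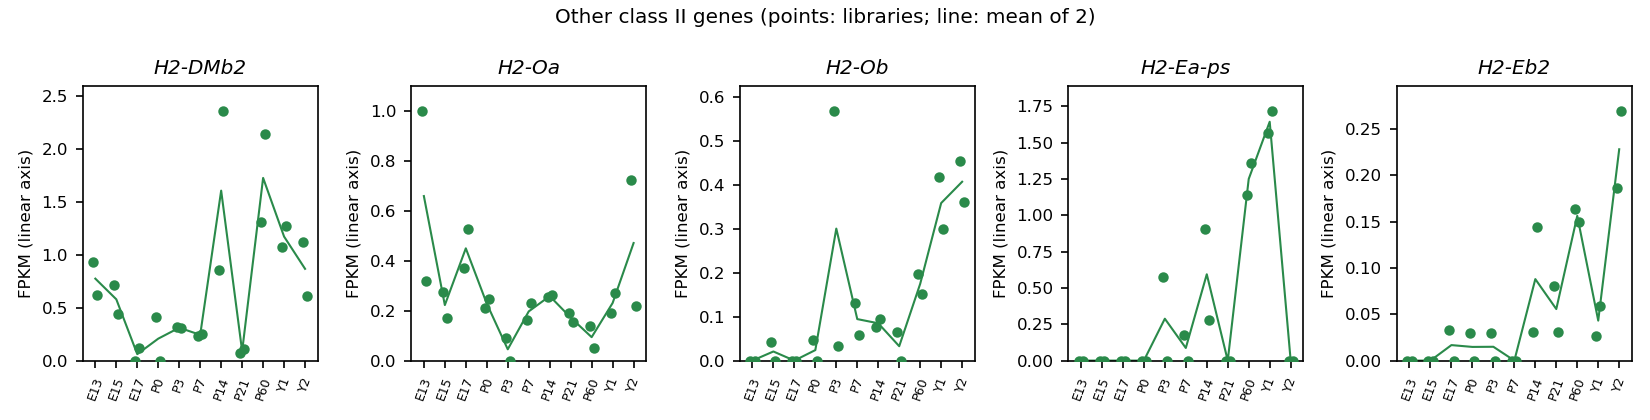
FPKM (linear axis) of the 5 other class II genes in the table at 11 ages, with points for the 2 libraries and a line for their mean. H2-Ea-ps reaches 1.57 and 1.72 FPKM at Y1 and is listed at 0 at P21 and Y2, and H2-DMb2 is at most 0.106 FPKM at P21.

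Few of the factors that bind class II promoters passed the test at any step. The 11 genes of the RFX, NF-Y, CREB and coactivator list had a summed level of 81.9 and 83.2 FPKM at P14, against 86.0 and 79.5 FPKM at P7. None passed the test in P14 against P7 (0 of 11 higher and 0 lower, where 2.48% of all tested genes rose and 1.22% fell; limma), and 0 had an unadjusted p under 0.05. In P60 against P21, 1 of 11 rose (6.82% of all tested genes), the coactivator Kat2b with 18.6 and 17.7 FPKM at P60, against 13.6 and 14.1 FPKM at P21. This call ended when any one of those 4 libraries was left out, with an adjusted p of at most 0.115. In Y1 against P60, 1 of 11 fell (9.98% of all tested genes), Nfyb, a subunit of NF-Y, a call that also ended when any one of the 4 libraries was left out, with an adjusted p of at most 0.291.

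In Y2 against Y1, 2 of the 11 rose (12.1% of all tested genes) and none fell (9.77%). Rfxank, the ankyrin repeat subunit of RFX, had 6.75 and 17.5 FPKM at Y2, against 4.12 and 4.74 FPKM at Y1 (log2 difference 1.15, limma, adjusted p = 0.0057). Its difference rested mostly on the second Y2 library and was 0.52 without it, and the call ended without Y1 replicate 1, with an adjusted p of 0.0501. Nfyb rose by 0.32 (limma, adjusted p = 0.031), a call that ended without Y1 replicate 1 or Y2 replicate 1, with an adjusted p of at most 0.212. Rfx5, the RFX subunit that binds DNA, had 1.88 and 1.47 FPKM at Y2, against 1.38 and 1.58 FPKM at Y1, which overlapped. Rfxap, the remaining subunit, had 6.97 and 6.46 FPKM at Y2, against 6.96 and 7.50 FPKM at Y1.

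Genes on the interferon gamma route to Ciita were measured beside it. Irf1, an interferon-induced factor that acts on the Ciita promoter, had 10.3 and 7.15 FPKM at P14, against 3.63 and 5.98 FPKM at P7, and did not pass the test (limma, adjusted p = 0.26). Ifng was listed at 0 in both libraries of P7 and of P21, had 0.172 and 0 FPKM at P14 and 0.285 and 0.197 FPKM at Y2, and was not tested. In P21 against P14, Jak1, the kinase bound to the interferon gamma receptor, rose, with 116 and 113 FPKM at P21, against 60.1 and 53.9 FPKM at P14 (limma, adjusted p = 8.5e-07). Jak2 and the receptor subunit Ifngr2 fell there (limma, adjusted p = 0.0028 and 0.0101), but Jak2 did not pass without P14 replicate 1 (adjusted p = 0.0504), nor Ifngr2 without P14 replicate 1 or P21 replicate 1 (adjusted p at most 0.139). Of all tested genes, 9.07% rose and 17.7% fell in that comparison.

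In Y2 against Y1, 2 of 9 tested genes of this route rose (Ifngr1 and Irf2) and 1 fell (Ifngr2), where 12.1% and 9.77% of all tested genes did. These counts depended on single libraries: 0 rose and 0 fell without Y1 replicate 1, 1 and 0 without Y1 replicate 2, 0 and 2 without Y2 replicate 1, and 4 and 0 without Y2 replicate 2. The receptor subunit Ifngr1 had 18.9 and 18.3 FPKM at Y2, against 12.2 and 13.8 FPKM at Y1 (log2 difference 0.49, limma, adjusted p = 0.0201), and the call ended without Y1 replicate 1 or Y2 replicate 1, with an adjusted p of at most 0.151.

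Among 10 tested genes of endosomal processing and class II turnover, cathepsin S and legumain parted ways with age. Of all tested genes, 2.48% rose and 1.22% fell in P14 against P7, and 9.07% rose and 17.7% fell in P21 against P14. Ctss encodes cathepsin S, the protease that trims the invariant chain in antigen presenting cells. It had 12.8 and 7.78 FPKM at P14, against 3.45 and 3.50 FPKM at P7 (log2 difference 1.30, limma, adjusted p = 0.025), the only 1 of the 10 to change, and the call ended without P7 replicate 1, P7 replicate 2 or P14 replicate 1, with an adjusted p of at most 0.233. In P21 against P14, 6 of 10 rose and none fell, while all 7 members were lower, but 2 rose without P14 replicate 1, 4 without P14 replicate 2 and 1 without P21 replicate 1. Ctss was among them, with 27.5 and 21.9 FPKM at P21, against 12.8 and 7.78 FPKM at P14 (limma, adjusted p = 0.0074), a call that ended without P14 replicate 2 or P21 replicate 1, with an adjusted p of at most 0.0900. In P60 against P21, 6 rose and 1 fell, Ctsf (6.82% and 6.70% of all tested genes), and none fell without P21 replicate 1 or P60 replicate 1.

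Ctss had 260 and 126 FPKM at Y2, against 31.7 and 40.6 FPKM at Y1 (log2 difference 2.30, limma, adjusted p = 5.9e-05). Lgmn, which encodes the endosomal asparaginyl protease legumain, went the other way, with 47.7 and 76.5 FPKM at Y2, against 287 and 358 FPKM at Y1 (log2 difference -2.39, limma, adjusted p = 1.7e-07). In Y1 against P60 Lgmn rose, with 287 and 358 FPKM at Y1, against 127 and 115 FPKM at P60 (limma, adjusted p = 9.4e-05). Cd83, which shields class II from ubiquitination, fell in Y1 against P60 and rose in Y2 against Y1 (log2 differences of -1.23 and 0.90, limma, adjusted p = 8.1e-05 and 4.9e-04). In all, 3 of the 10 rose and 2 fell in Y2 against Y1 (12.1% and 9.77% of all tested genes), with 1 fallen without Y1 replicate 1.

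CD74 also serves as a receptor for the cytokine MIF, with CD44 as its signalling partner. Of 4 tested genes of this group none passed the test in P14 against P7 (limma; 2 had an unadjusted p under 0.05, and 1 passed without P14 replicate 1). Of all tested genes, 2.48% rose and 1.22% fell in P14 against P7. Cd44 rose in P60 against P21, fell in Y1 against P60 and rose in Y2 against Y1 (log2 differences of 1.20, -1.35 and 0.80, limma, adjusted p = 1.5e-05, 6.9e-06 and 2.4e-04). Mif fell by 0.58 in Y2 against Y1 (limma, adjusted p = 0.0147), a call that ended without Y1 replicate 2 or Y2 replicate 2, with an adjusted p of at most 0.118.

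T cell costimulation genes act beside class II at the contact with T cells. Among all tested genes 2.48% rose and 1.22% fell in P14 against P7. Of 4 tested genes none passed the test in P14 against P7 (limma; 1 had an unadjusted p under 0.05, and 1 passed without P14 replicate 2). In P21 against P14 Cd86 rose, a call that ended without P14 replicate 1, P14 replicate 2 or P21 replicate 2 (limma, adjusted p at most 0.241). In Y2 against Y1 Cd80 and Cd86, the ligands of CD28, rose, 2 of 4 tested genes, where 12.1% of all tested genes did. Cd86 passed the filter only through the Y2 libraries, which favours a rise there. Cd86 had 1.37 and 1.05 FPKM at Y2, against 0.449 and 0.631 FPKM at Y1 (limma, adjusted p = 0.0046), which did not pass without Y1 replicate 1 (adjusted p = 0.0607). The call of Cd80 ended without Y1 replicate 1, Y1 replicate 2 or Y2 replicate 1 (limma, adjusted p at most 0.224).

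Leukocyte genes are given beside the class II genes because leukocytes carry most class II in many tissues. At P14 a minority of them passed the test, in a comparison where 2.48% of all tested genes rose and 1.22% fell. Of 7 pan-leukocyte genes 1 rose in P14 against P7, and the highest sum of a library was 18.9 FPKM at P14, against 8.93 FPKM at P7. That gene was Cd52, whose call ended without P14 replicate 1 or P7 replicate 2 (adjusted p at most 0.335), while 3 of the 7 passed without P14 replicate 2. All 7 were higher at P14 with an unadjusted p under 0.05 (limma), so their calls depend on the adjustment. Of 18 macrophage markers 2 rose, with a sum of 107.5 to 108.6 FPKM at P14, against 84.8 to 89.5 FPKM at P7. These were C1qb and Ccr2, and neither call held when single libraries were left out (C1qb without P14 replicate 1, P14 replicate 2 or P7 replicate 1, and Ccr2 when any one of the 4 was left out, with an adjusted p of at most 0.127 and 0.278). None of 8 tested dendritic cell markers, 3 B cell markers or 7 T cell markers passed the test (limma; 2, 0 and 1 of them had an unadjusted p under 0.05, in that order). The common leukocyte gene Ptprc had 0.640 and 0.270 FPKM at P14, against 0.170 and 0.210 FPKM at P7, and Cd3e, a defining T cell gene, was listed at 0 in both P7 libraries and had 0.0965 and 0 FPKM at P14.

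In P21 against P14, where 9.07% of all tested genes rose and 17.7% fell, macrophage markers were higher and class II genes lower. Of 18 macrophage markers 11 rose and none fell (7 without P14 replicate 1, 7 without P14 replicate 2 and 6 without P21 replicate 1), with a median log2 difference of 0.80 and a sum of 233 to 257 FPKM at P21, against 107.5 to 108.6 FPKM at P14. C1qa, a complement subunit made by macrophages, had 38.4 and 33.2 FPKM at P21, against 15.5 and 12.6 FPKM at P14 (limma, adjusted p = 2.7e-04), and Csf1r, the receptor that macrophages need to survive, had 8.35 and 7.29 FPKM at P21, against 3.00 and 3.82 FPKM at P14. Of the 7 pan-leukocyte genes 1 rose and 1 fell, Itgb2 and Lcp1. The call of Itgb2 ended when any one of the 4 libraries was left out (adjusted p at most 0.166). Of the 8 dendritic cell markers only Zbtb46 fell, and Itgax had 0.483 and 0.544 FPKM at P21, against 0.379 and 0.217 FPKM at P14. Trac was the only 1 of 7 T cell markers to change and fell, a call that ended without P14 replicate 2 or P21 replicate 1 (adjusted p at most 0.149).

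**Figure D5:**
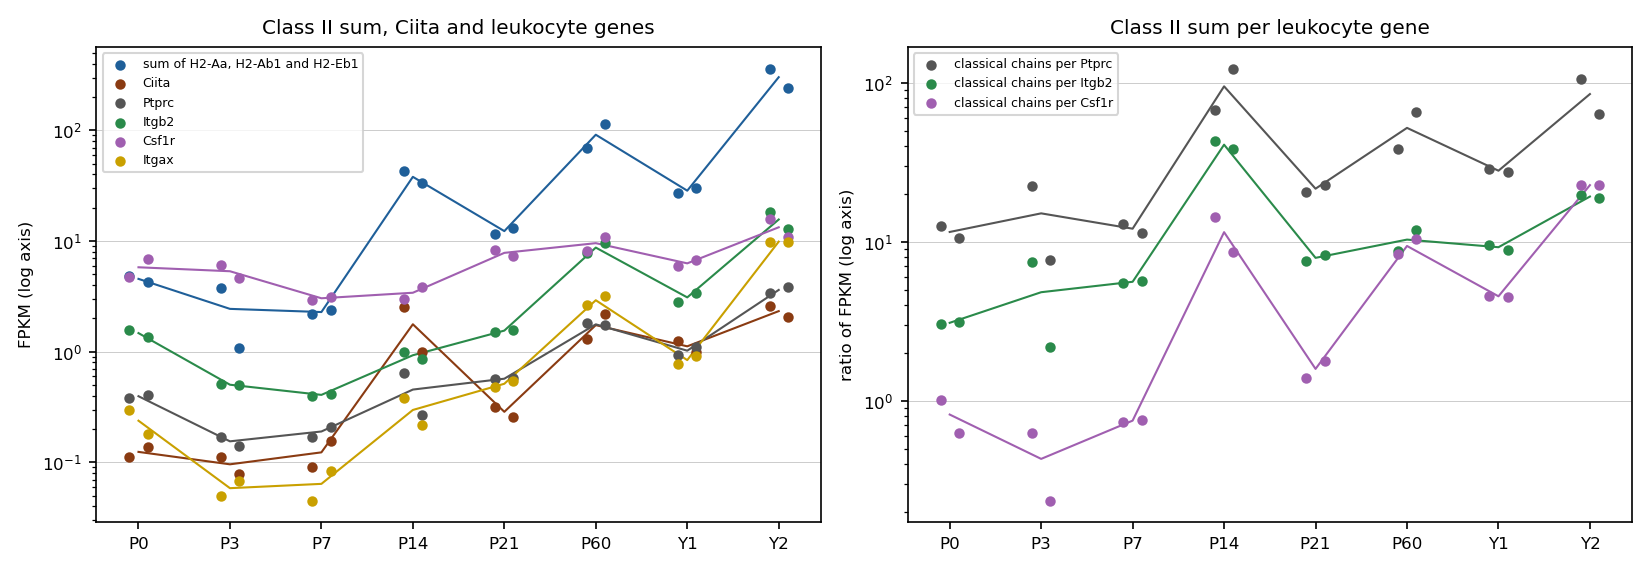
Left, FPKM (log axis) of the sum of H2-Aa, H2-Ab1 and H2-Eb1, of Ciita and of the leukocyte genes Ptprc, Itgb2, Csf1r and Itgax from P0 to Y2; right, the sum of the 3 chains per Ptprc, Itgb2 and Csf1r (log axis). Points are libraries and lines the mean of 2; per Csf1r the sum is 14.3 and 8.67 at P14 and 1.39 and 1.79 at P21.

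Per leukocyte gene, P14 therefore stood apart from the ages on either side. The sum of the 3 chains per Csf1r was 0.740 and 0.761 at P7, 14.3 and 8.67 at P14, 1.39 and 1.79 at P21, 8.43 and 10.4 at P60, 4.57 and 4.51 at Y1 and 22.8 and 22.6 at Y2. Per Ptprc it was 12.9 and 11.3 at P7, 67.1 and 122.6 at P14, 20.4 and 22.7 at P21, 38.2 and 65.8 at P60, 28.6 and 27.3 at Y1 and 105.9 and 63.7 at Y2. Ciita per Ptprc was 3.98 and 3.69 at P14 and between 0.444 and 1.32 at P7, P21, P60, Y1 and Y2. The Ptprc values at P7 and P14 are low, and ratios to them carry that counting error.

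From P60 on, pan-leukocyte genes and class II genes differed in the same directions. Among all tested genes 6.82% rose and 6.70% fell in P60 against P21. In P60 against P21 all 7 pan-leukocyte genes rose, with a sum of 64.1 to 67.2 FPKM at P60, against 14.8 to 16.3 FPKM at P21, and 9 of 18 macrophage markers rose and 1 fell (6 rose without P21 replicate 2 and 5 without P60 replicate 2). Itgax, which encodes CD11c of dendritic cells and some macrophages, had 2.63 and 3.21 FPKM at P60, against 0.483 and 0.544 FPKM at P21 (limma, adjusted p = 1.1e-06). Of 8 tested dendritic cell markers Itgax and Irf8 rose and Fscn1 fell. The sum of all 13 listed markers, Fscn1 among them, was 35.8 to 36.6 FPKM at P60, against 39.4 to 59.6 FPKM at P21. The call of Fscn1 ended without P21 replicate 1, P60 replicate 1 or P60 replicate 2 (limma, adjusted p at most 0.171). In Y1 against P60, 5 of the 7 pan-leukocyte genes fell and none rose (3 fell without P60 replicate 2 or without Y1 replicate 1), with a sum of 26.3 to 33.9 FPKM at Y1, against 64.1 to 67.2 FPKM at P60. Among macrophage markers 2 rose and 3 fell (4.45% of all tested genes rose and 9.98% fell), which became 1 fallen without Y1 replicate 1 and 1 risen without P60 replicate 2 or Y1 replicate 2, and of 8 dendritic cell markers 1 fell, Itgax, with 0.767 and 0.913 FPKM at Y1, against 2.63 and 3.21 FPKM at P60 (limma, adjusted p = 8.6e-06).

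In Y2 against Y1 all 7 pan-leukocyte genes rose, with a sum of 90.0 to 103 FPKM at Y2, against 26.3 to 33.9 FPKM at Y1, as did 10 of 18 macrophage markers (1 fell), 6 of 7 T cell markers and all 3 tested B cell markers. Among all tested genes 12.1% rose and 9.77% fell. Without the first Y2 library 7 pan-leukocyte genes, 8 macrophage, 6 T cell and 3 B cell markers rose, and without the second 7, 13, 6 and 2. Itgax had 9.87 and 9.88 FPKM at Y2, against 0.767 and 0.913 FPKM at Y1 (log2 difference 2.56, limma, adjusted p = 2.2e-10). Clec9a, a marker of cross-presenting dendritic cells, rose by 1.13 (limma, adjusted p = 4.1e-04). Clec9a passed the filter only through the Y2 libraries, which favours a rise there. Itgax and Clec9a were the 2 of 8 dendritic cell markers that rose. Fscn1, an actin-bundling gene also expressed outside dendritic cells, fell, with 7.62 and 10.9 FPKM at Y2, against 19.6 and 18.0 FPKM at Y1 (limma, adjusted p = 0.0188). The call of Fscn1 ended without Y1 replicate 1, Y1 replicate 2 or Y2 replicate 1 (adjusted p at most 0.127). Cd3e had 5.55 and 2.40 FPKM at Y2, against 0.625 and 0.547 FPKM at Y1 (limma, adjusted p = 4.8e-05). Among the B cell genes, Blk had a log2 difference of 0.96 (limma, adjusted p = 4.5e-04). Blk and the T cell marker Cd3d also passed the filter only through the Y2 libraries. The call of Cd79a ended without Y1 replicate 1 (adjusted p = 0.161) and that of Cd79b without Y1 replicate 1 or Y2 replicate 2 (adjusted p at most 0.138). Ms4a1, which encodes CD20, had 0.180 and 0.192 FPKM at Y2, against 0.157 and 0.461 FPKM at Y1. The part of each leukocyte type in the class II levels was not tested.

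Set against P60, 4 of the 7 pan-leukocyte genes rose at Y2 and none fell (10.8% and 17.4% of all tested genes), with 2 risen without P60 replicate 1. Itgax had 9.87 and 9.88 FPKM at Y2, against 2.63 and 3.21 FPKM at P60 (log2 difference 1.48, limma, adjusted p = 7.9e-08). Clec9a, counted next, passed the filter only through the Y2 libraries, which favours a rise there. Of the 8 dendritic cell markers 3 rose (Itgax, Clec9a and Cd209a) and 2 fell (Fscn1 and Irf8), with 0 fallen without P60 replicate 1 or P60 replicate 2, and 1 without either Y2 library.

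Genes of lymph node stroma are given because dissection can carry a node along. Of the stroma genes, Ccl21a, in both of its rows, and Ccl19 were listed at 0 in all 22 libraries. How reads with several alignments were treated is not given, so the zeros of Ccl21a, which has duplicate rows, may not show absence. Madcam1 was listed at 0 in all libraries of Y1 and Y2, and had a mean of 0.977 FPKM at P60. Cxcl13, a chemokine of lymphoid follicles, had 0.658 and 7.04 FPKM at Y2, against 0.468 and 1.31 FPKM at Y1, and did not pass the test (limma, adjusted p = 0.32). Its second Y2 library was the highest of all. Glycam1, made by the venules of lymph nodes, had 0.220 and 0 FPKM at Y2, against 0 in both libraries of Y1. The part of lymphoid tissue in the class II levels was not tested.

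Outside the members, 10657 genes reaching 5 FPKM in 2 or more libraries were ranked by Pearson r of their log2(FPKM + 1) over the 22 libraries with the mean profile of 6 members, Ciita being left out for its low values. There were 24 genes above 0.9. The 15 highest were Gm8995 (0.959), Cd52 (0.946), Ccl8 (0.944), Il4ra (0.934), Serpina3g (0.934), Cybb (0.931), Bcl2a1d (0.928), Casp1 (0.927), Itgb2 (0.926), Gimap3 (0.926), AI607873 (0.923), AF251705 (0.922), Wfdc17 (0.920), AW112010 (0.915) and Mpeg1 (0.915). Cd52 encodes a surface glycoprotein of lymphocytes and macrophages, Cybb the catalytic subunit of the phagocyte oxidase, Itgb2 the shared chain of leukocyte integrins and Il4ra a subunit of the receptor for interleukin 4. Serpina3g, a serine protease inhibitor, had the class II order at P14 and P21, with 1.65 and 1.11 FPKM at P21, against 15.2 and 5.39 FPKM at P14. Mpeg1, a pore-forming protein of macrophages, did not, with 18.0 and 18.2 FPKM at P21, against 12.4 and 5.33 FPKM at P14.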

How the data were processed

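RNA was sequenced from whole CD1 mouse ovaries, 22 libraries with 2 at each of 11 ages. The authors deposited 1 table of FPKM for 34745 genes. The submitters' processing notes list the tools HISAT2, StringTie and edgeR and the build mm10, whereas the series' design text names TopHat. For versions, annotation release, strandedness and the treatment of reads with several alignments, each is not given in the sources used here. The fetal columns carry fewer decimals than the postnatal ones, and whether all columns were quantified together is not known, which bears on P7 against E17. The protocol names an age, P5, that has no library here.

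The 16117 genes reaching 1 FPKM in 2 or more libraries entered limma 3.58.1 (R 4.3.3) as log2(FPKM + 1) (1 fit to all libraries, age as a factor, 11 residual degrees of freedom, eBayes with trend). Within a comparison, Benjamini-Hochberg adjustment ran over all tested genes, with calls at an adjusted p under 0.05. Differences are given as log2(FPKM + 1), later age minus earlier. Members and gene lists were chosen with earlier results of these data known. Named genes were all members and other class II genes, the 3 largest called changes per list and comparison, genes at 0 everywhere and the 15 most similar genes, and other genes are given for their values after these were seen. Not every gene that the rule took is described. Some genes of the interferon gamma and B cell lists are not reported here. A total of 27 symbols turned into dates were restored by gene ID.

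Depth was estimated from values under 0.2 FPKM, which fall on whole multiples of 1 read at a gene's length; 94.5% to 97.1% of 1156 to 1444 values per library were whole within 0.02 reads. Because FPKM of genes with several transcripts do not give back reads, no count test was run. Alternatives were a pseudocount of 0.1 FPKM, median-of-ratios scaling, quantile normalization, no filter, a replicate block and leaving out each library.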

Additional observations from a re-analysis of the deposited data

How the results depend on the processing

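Counts of called genes stayed within 1.5 times under the pseudocount of 0.1 FPKM, both other normalizations, no filter and the replicate block. Leaving out 1 library leaves 1 library at an age and assumes that it varies like the others. Without 1 library, the main counts moved by more than 1.5 times in at least 1 fit of each comparison except P7 against E17. They were 6012 in P7 against E17 (4524 to 5007 without 1 library), 3996 in P21 against P7 (2600 to 2827), 2179 in P60 against P21 (1163 to 1242), 2326 in Y1 against P60 (977 to 1433), 3521 in Y2 against Y1 (2200 to 5340), 4548 in Y2 against P60 (2866 to 6042), 596 in P14 against P7 (289 to 486) and 4315 in P21 against P14 (2677 to 3383). With all libraries kept, the share of calls that were higher moved by over 10 percentage points in Y1 against P60. It was 30.9% there, 46.7% with median-of-ratios scaling and 45.9% with quantile normalization. With quantile normalization it was 47.4% in place of 36.5% in P21 against P7, 45.0% in place of 55.3% in Y2 against Y1, 56.7% in place of 66.9% in P14 against P7 and 50.2% in place of 33.9% in P21 against P14. With a pseudocount of 0.1 FPKM, which enlarges differences of low genes, the median difference of the 7 members was 1.59 in P21 against P7, 3.51 in P14 against P7 and -1.92 in P21 against P14. In P21 against P14 it was -0.87 with quantile normalization and between -1.46 and -0.77 without 1 library. Of 504 values of single members under other settings, 4 changed sign, 1 of them outside P7 against E17, namely Cd74 in Y2 against P60. Of 1629 values of named tested genes, 1427 kept direction and call, 201 lost the call (152 of them without 1 library), 1 gained it and 0 reversed. Library numbers did not pair ages: of 55 pairs of ages, 1 had a correlation of deviations over 0.1. With the replicate block 5916, 3934, 2101, 2174, 3438, 4459, 579 and 4226 genes were called, in the order of the counts above. Depth limits Ciita before P14, and 2 libraries an age limit every difference.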
